A study of Mus musculus with 17 samples.

Results

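The genes of 5 chemokine receptors that steer inflammatory lymphocyte traffic, Cxcr6, Cxcr3, Cxcr4, Ccr2 and Cx3cr1, were followed by name through RNA sequencing counts of CD8+ T cells from mouse brain and blood. They were taken as the rows with these 5 symbols among the 48709 genes listed, and all 5 were present. The groups were APP-PS1 brain (4 libraries, from 3 males and 1 female), APP-PS1 blood (3 libraries, from 2 males and 1 female), WT brain (5 libraries) and WT blood (5 libraries), with all WT libraries from females. APP-PS1 mice carry a chimeric mouse/human amyloid precursor protein with the Swedish mutation (Mo/HuAPP695swe) together with the human presenilin 1 mutant PS1-dE9. The prion protein promoter directs both transgenes to neurons of the central nervous system, so T cells are not the intended site of the transgenes in this Alzheimer's disease model. WT mice served as controls. The design text speaks of aged mice, and no label gives the age of a mouse. Per the labels' protocols, the mice were bred specific pathogen free and moved out of that barrier a few days before use. The design text names 7 APP-PS1 mice and 10 WT mice, but no label says which libraries came from 1 mouse, and p-values measure the spread between these libraries, which may in part be technical.

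Chemokine receptors are G protein-coupled receptors that turn gradients of chemokines into directed migration. CXCR6 binds the transmembrane chemokine CXCL16 and is found on tissue-resident memory CD8+ T cells, CXCR3 binds the interferon-induced chemokines CXCL9, CXCL10 and CXCL11 and marks effector and memory cells, and CXCR4 binds CXCL12 and is used in homing to bone marrow. CCR2, the receptor of CCL2, is best known from inflammatory monocytes and is also carried by memory T cells, whereas CX3CR1, the receptor of fractalkine (CX3CL1), marks circulating cytotoxic effector T cells and, in brain tissue, microglia.

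All 5 genes are protein coding. On GRCm38, Cxcr6 (ENSMUSG00000048521) lies on chromosome 9 from 123806475 to 123811760 on the plus strand, Ccr2 (ENSMUSG00000049103) on chromosome 9 from 124101950 to 124113557 on the plus strand, and Cx3cr1 (ENSMUSG00000052336) on chromosome 9 from 119901616 to 120069879 on the minus strand. Cxcr3 (ENSMUSG00000050232) lies on chromosome X from 101731535 to 101734269 and Cxcr4 (ENSMUSG00000045382) on chromosome 1 from 128588199 to 128592293, both on the minus strand. Upstream sequence is shown for Cxcr6, the member that was higher in brain than in blood, and for Cxcr4, the member with the flattest levels. The sequences are from RefSeq (GRCm38.p6), cover chr9:123806227-123806474 on the plus strand and chr1:128592300-128592549 on the minus strand, run 5′ to 3′ towards the gene and end before its first annotated exon. Capitals mark matches to RUNX letters (TGTGGT or its reverse complement ACCACA) in Cxcr6 and to KLF letters (CACCC or GGGTG) in Cxcr4.
Cxcr6: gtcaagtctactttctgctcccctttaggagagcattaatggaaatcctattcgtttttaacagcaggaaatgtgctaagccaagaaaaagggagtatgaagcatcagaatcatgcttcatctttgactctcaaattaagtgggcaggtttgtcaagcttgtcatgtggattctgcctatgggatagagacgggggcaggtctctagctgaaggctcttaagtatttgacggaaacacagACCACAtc
Cxcr4: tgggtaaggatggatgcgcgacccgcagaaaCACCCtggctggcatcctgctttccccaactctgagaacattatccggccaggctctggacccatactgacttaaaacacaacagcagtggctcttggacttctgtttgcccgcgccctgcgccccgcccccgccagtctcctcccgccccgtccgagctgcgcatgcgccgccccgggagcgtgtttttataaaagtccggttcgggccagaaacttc
The RUNX match of Cxcr6 lay 10 to 5 bases before the RefSeq start. Over windows of 250 bases before that start, searched on both strands with no overlap between the motifs, RUNX letters occurred in 3 of the 5 members (Cxcr6, Cxcr3 and Cx3cr1), against 14.05% of all 32851 RefSeq mouse windows of that length. KLF letters occurred in 2 members (Cxcr4 and Cx3cr1), against 52.01% of all windows. T-box letters (AGGTGT or ACACCT) occurred in none, against 11.83% of all windows. The other windows reach into annotated exons, by 250 of 250 bases in Cx3cr1, 233 in Ccr2 and 122 in Cxcr3. These are matches of letters in short windows and carry no reading about the factors.

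The libraries were shallow, with 27646 to 127707 counts in APP-PS1 brain, 39055 to 46336 in APP-PS1 blood, 51161 to 169903 in WT brain and 62604 to 214670 in WT blood, so that 1 count stood for 4.66 to 36.2 CPM (count over library total, times 1000000). The 7 listed T cell receptor and CD8 genes had counts in every group, and Cd4 and Foxp3 had none. These 7 genes summed to 6004 to 7359 CPM in APP-PS1 brain, against 4662 to 5936 CPM in APP-PS1 blood. In WT mice they summed to 6939 to 8424 CPM in brain, against 5607 to 7612 CPM in blood. The part of this difference in the receptor levels was not tested. The defining microglial genes P2ry12, Tmem119, Trem2, Sall1 and Fcrls were at 0 in every group. Red cell genes, in contrast, summed to 36.2 to 368 CPM in APP-PS1 brain, against 2970 to 8071 CPM in APP-PS1 blood, and to 156 to 873 CPM in WT brain, against 2152 to 9967 CPM in WT blood. APP-PS1 brain replicate 1 and APP-PS1 blood replicate 1, the shallowest libraries and both from males, correlated least with the other libraries (mean r of 0.640 and 0.670), and some results are also given without them. Brain tissue was homogenized and cleared of myelin on percoll and blood was lysed for red cells before staining, per the labels' protocols, so tissue and processing cannot be told apart.

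**Figure D1:**
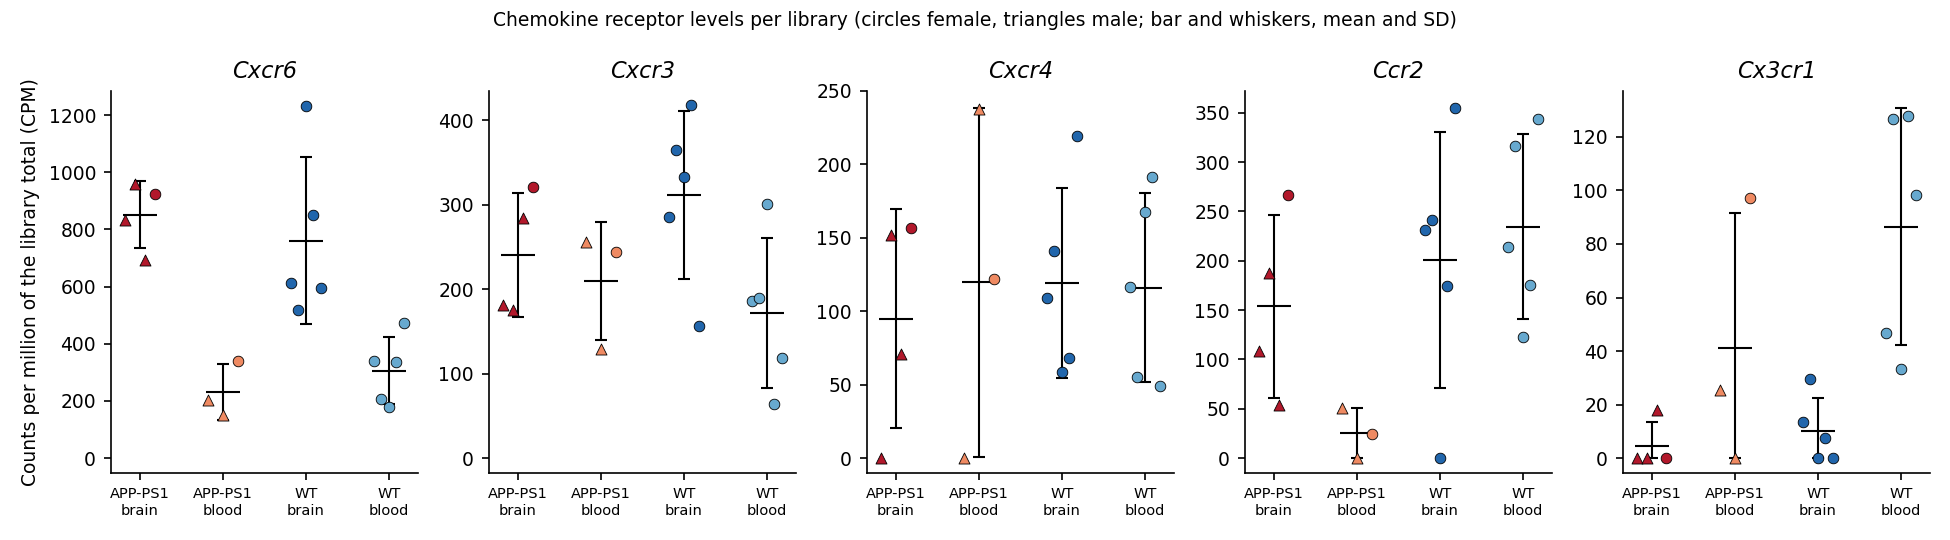
CPM of each receptor gene (y axis, linear, 1 panel per gene with its own scale) in each library of the 4 groups (x axis); circles are females, triangles males, and the bar with whiskers is the mean ± SD. Cxcr6 libraries from brain lie at 518 to 1231 CPM, all above the blood libraries at 151 to 471 CPM, and the 3 APP-PS1 blood libraries have 0 to 51.2 CPM of Ccr2.

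Per kilobase of exon, Cxcr6 was the most abundant of the 5 genes in 3 of the 4 groups. Its mean level was 441 ± 61.6 CPM per kb (SD, n = 4) in APP-PS1 brain, 120.2 ± 50.6 CPM per kb (SD, n = 3) in APP-PS1 blood, 394 ± 151 CPM per kb (SD, n = 5) in WT brain and 159 ± 61.1 CPM per kb (SD, n = 5) in WT blood. Cxcr3, the other well-expressed gene, had means of 138.9 CPM per kb in APP-PS1 brain, 121 CPM per kb in APP-PS1 blood, 179.9 CPM per kb in WT brain and 99.2 CPM per kb in WT blood. In APP-PS1 blood its mean was the highest of the 5, above that of Cxcr6 by less than their SD. Mean levels over the 4 groups were 52.5 to 66.2 CPM per kb for Cxcr4, 3.72 to 34.7 CPM per kb for Ccr2 and 0.986 to 19.2 CPM per kb for Cx3cr1. They stood in that order in every group but APP-PS1 blood, where Cx3cr1 (9.10 ± 11.2 CPM per kb) and Ccr2 (3.72 ± 3.79 CPM per kb) changed places within their SD. No source used here says whether reads cover whole transcripts, so levels per length are approximate.

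Of the 5 genes, 4 passed edgeR's filter on low expression (near 117 CPM in 3 or more libraries), which kept 2366 genes, and Cx3cr1 did not. With edgeR's quasi-likelihood test and Benjamini-Hochberg adjustment over all 2366 genes, 1 of the 4 was called in APP-PS1 brain over APP-PS1 blood at an adjusted p under 0.05, against 0.549% of all tested genes. Likewise 1 of 4 was called in WT brain over WT blood, against 0.761% of all tested genes, and 1 of 4 in the contrast of brain over blood averaged over the strains, against 2.62%. In each case the gene was Cxcr6. The members were chosen with earlier results of these data known, so the shares set beside these counts are a description. None of the 4 was called in APP-PS1 brain over WT brain, where 0% of all genes were called and 98 of 2366 (4.14%) had an unadjusted p under 0.05, and where DESeq2 and limma voom also called 0 genes. None of the 4 was called in APP-PS1 blood over WT blood, against 0.0423% of all genes, or in the test of the difference between the strains in their brain over blood changes, against 0.0423% of all genes. The median log2 fold change of the 4 was 1.07 in APP-PS1 brain over APP-PS1 blood, against 0.03 over all tested genes, 0.41 in WT brain over WT blood, against 0.02, -0.26 in APP-PS1 brain over WT brain, against -0.04, and -0.22 in APP-PS1 blood over WT blood, against -0.05.

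Counting groups whose CPM ranges did not overlap takes in Cx3cr1 as well. The shares set beside these counts are over the 2366 tested genes. They do not include Cx3cr1 or cover genes at its low level. APP-PS1 brain and APP-PS1 blood did not overlap for 2 of the 5 genes (Cxcr6 and Ccr2), against 9.04% of tested genes. WT brain and WT blood did not overlap for 2 of 5 (Cxcr6, which was tested, and Cx3cr1, which was not), against 2.62% of tested genes. APP-PS1 brain and WT brain overlapped for all 5, where 1.56% of tested genes did not overlap, and APP-PS1 blood and WT blood did not overlap for 1 of 5 (Ccr2), against 6.93%. Exact two-sided permutation tests on CPM were also made for the 5 genes in these 4 comparisons, 20 tests adjusted together, and 0 of 20 passed an adjusted p under 0.05.

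**Figure D2:**
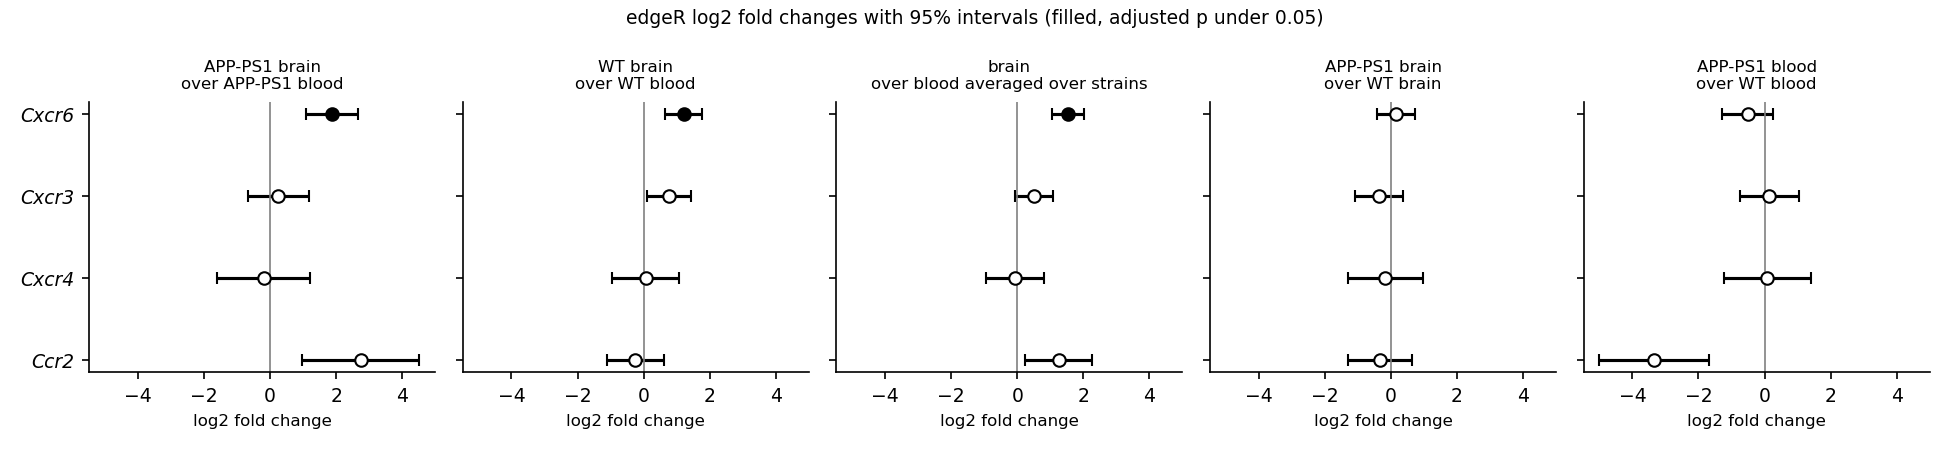
Log2 fold changes (x axis) of the 4 tested receptor genes (y axis) in 5 edgeR comparisons, 1 panel each, with 95% intervals; filled points have an adjusted p under 0.05. Only Cxcr6 has filled points, at 1.87, 1.21 and 1.54 in the 3 comparisons of brain over blood, and the intervals of Cxcr4 span 0 in all 5 panels.

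Cxcr6 was higher in brain than in blood in both strains. In APP-PS1 brain its levels were 832, 960.1, 693 and 924 CPM, against 205, 151 and 341 CPM in APP-PS1 blood. In WT brain they were 612, 518, 1231, 849.8 and 595 CPM, against 340.1, 206, 178, 335 and 471 CPM in WT blood. Every brain library exceeded every blood library, within and across strains, and the lowest brain value was that of WT brain replicate 2. In a bulk library, fewer cells with a transcript and less transcript per cell cannot be told apart. The gene averaged 852 ± 119 CPM in APP-PS1 brain, against 232 ± 97.7 CPM in APP-PS1 blood (SD, n = 4 and 3), and the log2 fold change was 1.87 (SE 0.40, edgeR adjusted p = 0.00671). It averaged 761 ± 291 CPM in WT brain, against 306 ± 118 CPM in WT blood (SD, n = 5 each), and the log2 fold change was 1.21 (SE 0.28, edgeR adjusted p = 0.0130). Averaged over the strains the log2 fold change was 1.54 (SE 0.24, edgeR adjusted p = 1.55e-05), the seventh smallest p of all tested genes. The exact permutation test gave p = 0.0571 for APP-PS1 and p = 0.00794 for WT, the smallest p that 4 against 3 and 5 against 5 libraries allow, or 0.212 and 0.0794 when adjusted over the 20 tests.

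Leaving out 1 library could end the calls within a strain but not the averaged call. The WT call also ended with both wider expression filters (log2 fold change 1.15 with each, edgeR adjusted p = 0.0620 and 0.0725). The APP-PS1 call ended when APP-PS1 blood replicate 1 or 2 was left out (edgeR adjusted p up to 0.0865), and the WT call ended without WT brain replicate 3 or 4 or without WT blood replicate 2 or 3 (edgeR adjusted p up to 0.0967). Averaged over the strains, the log2 fold change stayed between 1.42 and 1.73 and its edgeR adjusted p at or below 0.000523 when any 1 library was left out. Without both libraries that stood apart the APP-PS1 log2 fold change was 1.80 (edgeR adjusted p = 0.0467). With female libraries only, which leaves 1 APP-PS1 library per tissue, it was 1.47 (edgeR adjusted p = 0.512), and the averaged one was 1.33 (edgeR adjusted p = 0.0892). In fits from which mitochondrial, ribosomal and haemoglobin genes were removed, the log2 fold change of Cxcr6 was 1.87 in APP-PS1 mice (edgeR adjusted p = 0.00551) and 1.18 in WT mice (edgeR adjusted p = 0.0157). Red cell genes summed to at most 9967 CPM in any library, so their removal could hardly move this value. The part of red cells in the Cxcr6 difference was not tested.

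Between strains, Cxcr6 had a log2 fold change of 0.16 in brain (95% interval -0.41 to 0.72, edgeR adjusted p = 0.999) and of -0.51 in blood (95% interval -1.28 to 0.26, edgeR adjusted p = 0.779), both APP-PS1 over WT. The brain over blood change was larger in APP-PS1 mice by 0.67 on the log2 scale (SE 0.49), a difference that did not pass (edgeR adjusted p = 0.999). Among blood libraries the highest APP-PS1 value, 341 CPM, was that of the female, and the males had 205 and 151 CPM. With sex as a term the log2 fold change was 0.51 in brain (edgeR adjusted p = 0.999) and -0.22 in blood (edgeR adjusted p = 0.982), and with female libraries only it was 0.08 in blood. Strain and sex largely coincide in these libraries, with 1 female library in each APP-PS1 group and no male in WT. The transcript sits inside the span of Fyco1, which runs on the opposite strand from 123789500 to 123851899. The annotated exons of the genes share 0 bases, and Fyco1 had 42 counts over all libraries, against 840 for Cxcr6.

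Cxcr3 was measured in all 17 libraries, and its groups overlapped in every comparison. Its levels were 181, 176, 284 and 321 CPM in APP-PS1 brain, against 256, 129 and 243 CPM in APP-PS1 blood. They were 286, 365, 332, 417 and 157 CPM in WT brain, against 186, 189.8, 301, 63.9 and 118 CPM in WT blood. In WT mice 4 of the 5 brain libraries lay at or above 286 CPM and 4 of the 5 blood libraries at or below 189.8 CPM, with 1 library of each tissue across that gap. The gene averaged 240.5 ± 73.4 CPM in APP-PS1 brain, against 209.6 ± 69.7 CPM in APP-PS1 blood (SD, n = 4 and 3), a log2 fold change of 0.26 (95% interval -0.68 to 1.19, edgeR adjusted p = 0.914). It averaged 311 ± 98.9 CPM in WT brain, against 172 ± 89.1 CPM in WT blood (SD, n = 5 each), a log2 fold change of 0.77 (95% interval 0.09 to 1.44, edgeR unadjusted p = 0.0299 and adjusted p = 0.534). The exact permutation p for WT was 0.0635, or 0.212 adjusted over the 20 tests. Averaged over strains the log2 fold change was 0.51 (SE 0.29, edgeR adjusted p = 0.465). APP-PS1 over WT, Cxcr3 had a log2 fold change of -0.37 in brain (95% interval -1.10 to 0.36, edgeR adjusted p = 0.999) and 0.14 in blood (95% interval -0.75 to 1.04, edgeR adjusted p = 0.947).

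Cxcr4 had the flattest group means and wide spread within each group. Its levels were 0, 152, 71.1 and 157 CPM in APP-PS1 brain, against 0, 237 and 122 CPM in APP-PS1 blood. They were 109, 141, 58.6, 68.3 and 219 CPM in WT brain, against 116, 55.4, 167, 192 and 49.1 CPM in WT blood. The values at 0 came from the libraries that stood apart, in which a count of 0 allows up to 109 CPM (APP-PS1 brain replicate 1) and up to 76.8 CPM (APP-PS1 blood replicate 1), counting error only. The groups averaged 95 ± 74.5 CPM (SD, n = 4) in APP-PS1 brain, 119.7 ± 119 CPM (SD, n = 3) in APP-PS1 blood and, in WT mice, 119 ± 64.9 CPM in brain and 116 ± 64.2 CPM in blood (SD, n = 5 each). Brain over blood, the log2 fold change was -0.19 in APP-PS1 mice (95% interval -1.60 to 1.22, edgeR adjusted p = 0.957) and 0.06 in WT mice (95% interval -0.96 to 1.08, edgeR adjusted p = 0.992). The sign turned under at least 1 alternative in 5 of its 6 contrasts, and in all 6 when single libraries were left out.

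Ccr2 was nearly absent from APP-PS1 blood. The 3 libraries had 2, 0 and 1 counts, or 51.2, 0 and 24.3 CPM, against 46, 40, 11, 11 and 35 counts, or 214, 316, 123, 176 and 344 CPM, in WT blood. At the mean level of WT blood the APP-PS1 blood libraries would have held 9.16, 10.9 and 9.64 counts. All 3 APP-PS1 blood libraries, the female one (replicate 3, 24.3 CPM) included, lay below the lowest WT blood library at 123 CPM. The pooled counts, 3 in APP-PS1 blood and 143 in WT blood, gave a ratio of 0.0987 (95% exact interval 0.0201 to 0.294, counting error only). The mean was 25.2 ± 25.6 CPM (SD, n = 3) in APP-PS1 blood and 235 ± 93.6 CPM (SD, n = 5) in WT blood. The log2 fold change was -3.34 (SE 0.85). This had the fifth smallest p of all tested genes and did not pass the adjustment (edgeR unadjusted p = 0.000264, adjusted p = 0.125). The exact permutation p was 0.0357, the smallest that 3 against 5 libraries allow, or 0.212 adjusted over the 20 tests.

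Whether this difference passed depended on the fit. It passed with only the groups compared in the fit (log2 fold change -3.35, edgeR adjusted p = 0.0494), with wider expression filters (-3.57 and -3.59, edgeR adjusted p = 0.00888 and 0.00869) and without WT brain replicate 3, a library that is not part of the comparison (edgeR adjusted p = 0.0285). The wider filters moved the median of all genes in this comparison to -0.41 and -0.47, and relative to that median Ccr2 was at -3.16 and -3.13. It did not pass with DESeq2 (adjusted p = 0.187), with limma voom (adjusted p = 0.706), with sex as a term (-2.71, edgeR adjusted p = 0.863) or with female libraries only (-3.30, edgeR adjusted p = 0.548). Without the libraries that stood apart it was -4.29 (edgeR adjusted p = 0.329). Markers of monocytes, which carry CCR2, summed to 97.3 to 307 CPM in APP-PS1 blood (2 of 9 measured genes with a count) and 97.8 to 192 CPM in WT blood (4 of 9), with the defining genes Cd14, Fcgr1 and Adgre1 at 0 in every group. Most of the sum in APP-PS1 blood came from Ctss (170.8 ± 118 CPM, SD, n = 3, against 81.9 ± 38.8 CPM, SD, n = 5, in WT blood). The mean of Ms4a6c was also higher, at 36.0 ± 62.3 CPM in APP-PS1 blood, against 9.97 ± 10.6 CPM in WT blood, from 5 counts in each. Its counts came from 1 of 3 APP-PS1 blood libraries and 3 of 5 WT blood libraries, with medians of 0 and 7.91 CPM. Lyz2 had 0 counts in APP-PS1 blood and 11 in WT blood (in 2 of 5 libraries). Cd68 had 0 counts in APP-PS1 blood and 10 in WT blood (in 4 of 5 libraries). The means of the listed markers thus went in both directions. Counts of 0 say little here, since APP-PS1 blood held 126493 counts in all, against 595238 in WT blood. The part of monocytes in the Ccr2 levels was not tested.

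In brain Ccr2 was present in both strains. Its levels were 109, 187, 53.3 and 266 CPM in APP-PS1 brain, from 3, 16, 3 and 34 counts, against 231, 241, 0, 175 and 355 CPM in WT brain, from 17, 41, 0, 23 and 34 counts. The strains overlapped, and the library at 0, WT brain replicate 3, was the shallowest of WT brain, where a count of 0 allows up to 58.6 CPM. APP-PS1 brain averaged 154 ± 92.9 CPM (SD, n = 4) and WT brain 200.4 ± 129.7 CPM (SD, n = 5), a log2 fold change of -0.34 (95% interval -1.31 to 0.63, edgeR adjusted p = 0.999) whose sign turned with sex as a term (0.27) and with female libraries only (0.39).

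Brain and blood were also compared within each strain for Ccr2. APP-PS1 brain exceeded APP-PS1 blood in every library, if narrowly (lowest brain value 53.3 CPM, highest blood value 51.2 CPM), with a log2 fold change of 2.75 (SE 0.90, edgeR unadjusted p = 0.00384, adjusted p = 0.170). Without the libraries that stood apart the log2 fold change was 3.81 (edgeR adjusted p = 0.227). The pooled counts, 56 in APP-PS1 brain and 3 in APP-PS1 blood, gave a ratio of 7.95 (95% exact interval 2.58 to 39.7, counting error only). In WT mice the log2 fold change was -0.25 (95% interval -1.10 to 0.61, edgeR adjusted p = 0.963). Its sign in WT is not settled, since the difference in mean CPM, WT brain minus WT blood, was -34.1 and turned to 15.9 without WT brain replicate 3. The difference between the strains was 3.00 (SE 1.01, edgeR unadjusted p = 0.00488) and did not pass the adjustment over all genes (adjusted p = 0.721). This contrast shares the APP-PS1 blood libraries with the comparison of the strains in blood, so the results are not independent.

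Cx3cr1 had the fewest counts of the 5 genes, 60 in all, and every WT brain library lay below every WT blood library. WT brain had 1, 5, 0, 1 and 0 counts, or 13.6, 29.4, 0, 7.59 and 0 CPM, against 10, 16, 3, 8 and 10 counts, or 46.6, 127, 33.4, 128 and 98.2 CPM, in WT blood. The margin was narrow, between the highest brain library at 29.4 CPM and the lowest blood library at 33.4 CPM. The mean was 10.1 ± 12.2 CPM in WT brain, against 86.5 ± 44.3 CPM in WT blood (SD, n = 5 each), and the exact permutation p of 0.00794 was the smallest that 5 against 5 libraries allow, or 0.0794 adjusted over the 20 tests. At the mean level of WT blood the WT brain libraries would have held 45.2 counts together, against 7 seen, and the pooled counts gave a ratio of 0.170 (95% exact interval 0.0647 to 0.378, counting error only). With a filter of at least 10 counts over all libraries, which admits Cx3cr1, the log2 fold change was -2.76 (SE 0.87, edgeR adjusted p = 0.254).

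In APP-PS1 mice Cx3cr1 had 0, 0, 1 and 0 counts in brain, or 0, 0, 17.8 and 0 CPM, against 1, 0 and 4 counts in blood, or 25.6, 0 and 97.3 CPM. The groups overlapped, since APP-PS1 blood replicate 2 also had none, and the exact permutation p was 0.286 (0.635 adjusted over the 20 tests). The pooled ratio of 1 count to 5 counts was 0.0852 (95% exact interval 0.00180 to 0.761, counting error only). With the wider filter the log2 fold change was -2.90 in APP-PS1 mice (edgeR adjusted p = 0.547) and, averaged over the strains, -2.83 (SE 0.86, edgeR adjusted p = 0.0928). Natural killer cells, which can also carry this receptor, had marker sums of 29.4 to 156 CPM in WT brain (2 of 7 genes with a count) and 83.8 to 474 CPM in WT blood (6 of 7), and of 11.7 to 86.1 CPM in APP-PS1 brain (2 of 7) and 43.2 to 73.0 CPM in APP-PS1 blood (4 of 7). Their defining gene Ncr1 was at 0 throughout, and the part of these cells in the Cx3cr1 levels was not tested. Microglial markers summed to 0 to 142 CPM in APP-PS1 brain (4 of 14 genes with a count), 0 to 146 CPM in APP-PS1 blood (3 of 14), 0 to 95.3 CPM in WT brain (4 of 14) and 9.82 to 123 CPM in WT blood (5 of 14). Cx3cr1 overlaps 9 annotated genes, 1 of which, the antisense transcript Gm33858, shares 78 exon bases with it, so reads of these cannot be told apart without the strand setting.

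**Figure D3:**
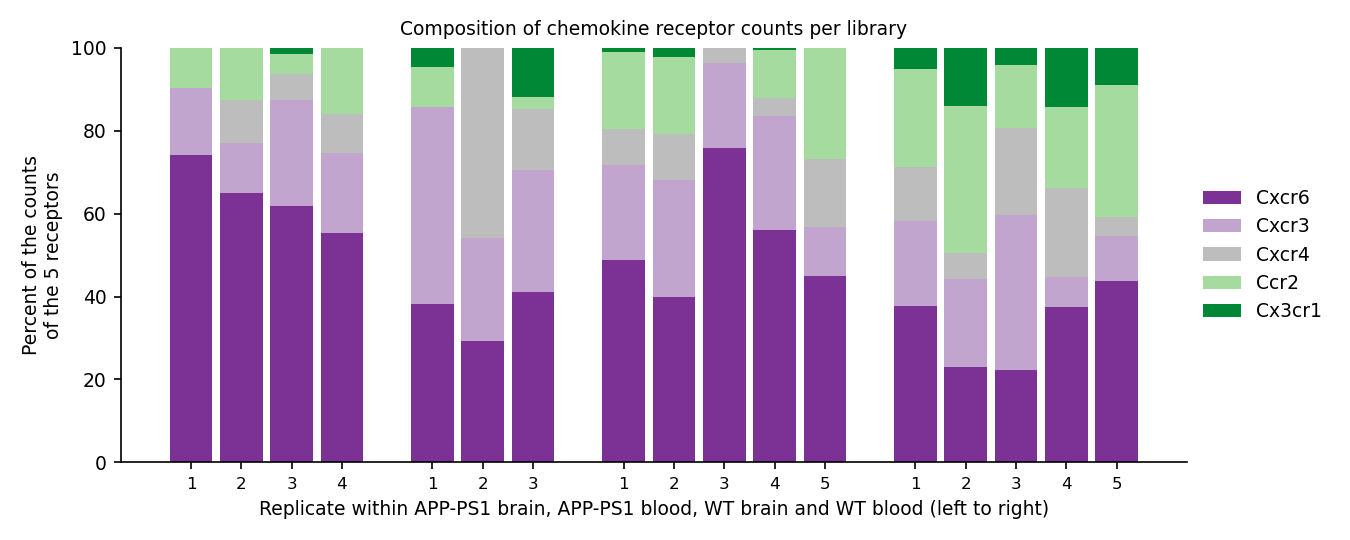
Share of the counts of the 5 receptor genes (y axis, percent) taken by each gene in each library (x axis, replicates within APP-PS1 brain, APP-PS1 blood, WT brain and WT blood, left to right). Cxcr6 takes 55.4% to 74.2% in APP-PS1 brain, against 29.2% to 41.2% in APP-PS1 blood, and shares are not corrected for gene length.

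Read as shares of the 5 receptors' counts, which do not depend on the library total, Cxcr6 again held the largest share of brain counts. Cxcr6 held 55.4% to 74.2% of these counts in APP-PS1 brain, against 29.2% to 41.2% in APP-PS1 blood, without overlap. It held 40% to 75.9% in WT brain, against 22.2% to 43.6% in WT blood, where WT brain replicate 2 lay below the highest blood library. Ccr2 held 4.76% to 16% in APP-PS1 brain, 0% to 9.52% in APP-PS1 blood, 0% to 26.8% in WT brain and 15.3% to 35.4% in WT blood. Cx3cr1 held 0% to 1.59% in APP-PS1 brain, against 0% to 11.8% in APP-PS1 blood, with overlap. It held 0% to 2.27% in WT brain, against 4.17% to 14.3% in WT blood, without overlap. These shares sum to 100% in each library, so a rise of one lowers the others.

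Several members sit in receptor clusters on chromosome 9, and the neighbours were read out for comparison. Along the distal part of the chromosome the order is Cx3cr1, Ccr8, Ackr2, Ccr9, Cxcr6, Xcr1, Ccr1, Ccr1l1, Ccr3 and Ccr2. Ccr9, a gut homing receptor that ends 22 kb before Cxcr6, had 0 counts in both brain groups, 5 in APP-PS1 blood and 2 in WT blood. Xcr1, the receptor of XCL1 best known from dendritic cells and 41 kb after Cxcr6, had 0 counts in both APP-PS1 groups, 4 in WT brain and 8 in WT blood. The inflammatory receptor genes Ccr1 and Ccr1l1 had none in any group.

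**Figure D4:**
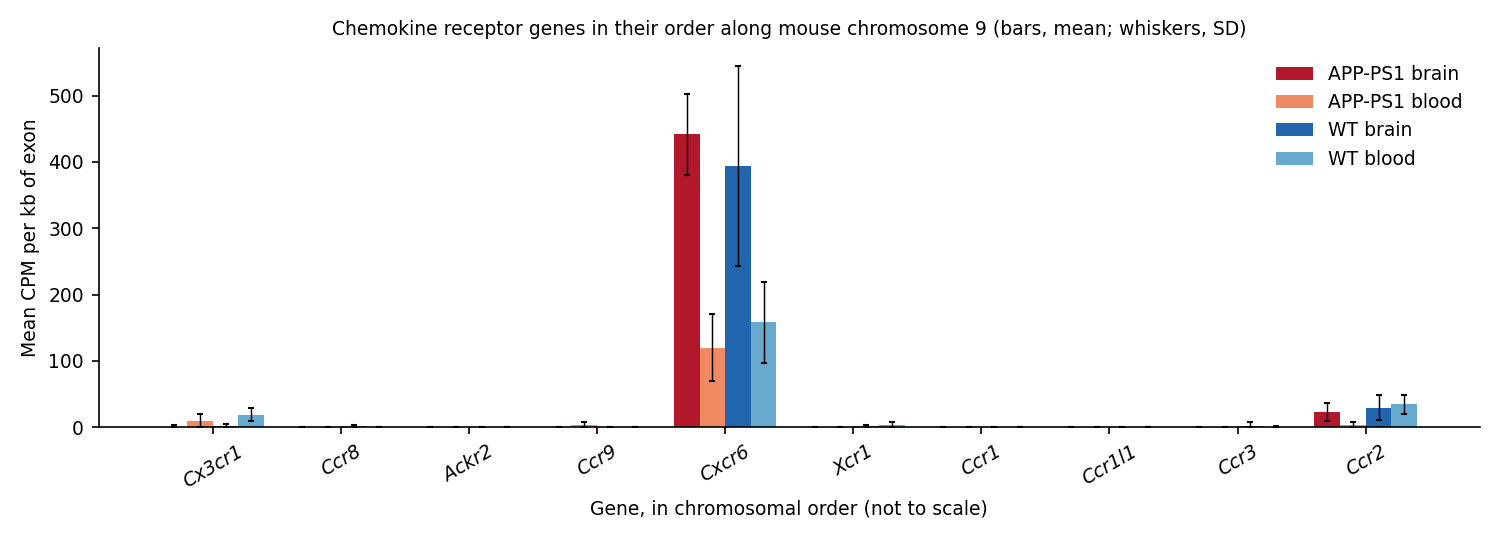
Mean CPM per kb of exon (y axis, bars; whiskers, SD over 3 to 5 libraries) of 10 chemokine receptor genes in their order along chromosome 9 (x axis, not to scale) in the 4 groups. Cxcr6, at 441 in APP-PS1 brain and 394 in WT brain, stands among neighbours at or near 0, and Ccr2 has 3.72 in APP-PS1 blood, against 34.7 in WT blood.

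Of the 19 other chemokine receptors listed, 11 had a count in some library and 1, Ccr7, passed the filter. Ccr7 reached the filter's level near 117 CPM only in the 3 APP-PS1 blood libraries (432 to 640 CPM) and WT blood replicate 4 (128 CPM). It thus passed through the group where it was high, so its comparisons with APP-PS1 blood are not independent of the filter. Ccr7, the lymph node homing receptor of naive and central memory cells, ran opposite to Cxcr6 between tissues and opposite to Ccr2 in blood. It had 24.8 ± 12.9 CPM in APP-PS1 brain, against 503 ± 119 CPM in APP-PS1 blood (SD, n = 4 and 3), a log2 fold change of -4.47 (SE 0.68, edgeR adjusted p = 1.21e-05). It had 19.2 ± 7.51 CPM in WT brain, against 79.0 ± 38 CPM in WT blood (SD, n = 5 each), a log2 fold change of -1.95 (SE 0.58) that did not pass (edgeR adjusted p = 0.106). In APP-PS1 blood over WT blood Ccr7 was the only tested gene called, with a log2 fold change of 2.54 (SE 0.51, edgeR adjusted p = 0.0169). The log2 fold change of Ccr7 stayed between 2.27 and 2.71 under all alternatives. Its call was lost with sex as a term (adjusted p = 0.539), with female libraries only (adjusted p = 0.548), without the libraries that stood apart (adjusted p = 0.265) and with the wider expression filters (adjusted p = 0.0581 and 0.0641), all by edgeR. It was also lost without any 1 of the 3 APP-PS1 blood libraries or without WT blood replicate 1, 2, 3 or 5 (edgeR adjusted p from 0.0543 to 0.274). Cxcr5, a follicle homing receptor, and Ccrl2, an atypical receptor, averaged 16.9 and 8.12 CPM over all libraries.

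Of 12 ligands of the 5 receptors listed, 4 had a count and 2 passed the filter. Cxcl16, Cxcl9, Cxcl11, Cxcl12, Ccl2 and Cx3cl1, products mainly of other cells, had no count in any library. Cxcl10 had 34.8 ± 50.4 CPM (SD, n = 4) in APP-PS1 brain, 24.3 ± 42.1 CPM (SD, n = 3) in APP-PS1 blood and, in WT mice, 26 ± 23.4 CPM in brain and 11.9 ± 13.4 CPM in blood (SD, n = 5 each). Ccl7 had 4 counts, all in 1 of the 5 WT brain libraries. Hmgb1, whose product can complex with CXCL12, and Mif, whose product also binds CXCR4, averaged 682 and 432 CPM over all libraries, and neither was called in any comparison (lowest edgeR adjusted p = 0.545 and 0.831).

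Among 37 genes of receptor signalling and migration, 29 were tested and 1 was called, in the contrast averaged over strains, where 2.62% of all tested genes were called. Rgs1, which shortens G protein signalling from chemokine receptors, had 208 ± 24.7 CPM in APP-PS1 brain, against 81.0 ± 32.8 CPM in APP-PS1 blood (SD, n = 4 and 3), and 158 ± 65.4 CPM in WT brain, against 48.7 ± 28.1 CPM in WT blood (SD, n = 5 each). It was called higher in brain averaged over strains, with a log2 fold change of 1.44 (SE 0.39, edgeR adjusted p = 0.0261), and not within APP-PS1 mice (1.39, adjusted p = 0.413) or WT mice (1.48, adjusted p = 0.140). Rgs1 reached the filter's level near 117 CPM in brain libraries only. Blood libraries held at most 102 CPM in APP-PS1 mice and 97.8 CPM in WT mice. The gene thus passed through the tissue where it was high, so its brain over blood comparisons are not independent of the filter. The most abundant genes of the list, the small GTPase Rac2, its regulator Arhgdib, the G protein subunit Gnb1 and the actin regulator Coro1a, averaged 550.1 to 1733 CPM over all libraries and were not called in any comparison (lowest edgeR adjusted p = 0.443). The median log2 fold change of the 29 averaged over strains was -0.06, against 0.03 over all tested genes.

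Of 17 transcription factors and regulators known to act on T cell migration or fate, 9 were tested. In the contrast averaged over strains 3 of the 9 were called, all lower in brain, against 2.62% of all tested genes, and within each strain 1 of the 9, Klf2, was called, against 0.549% in APP-PS1 mice and 0.761% in WT mice. The list was chosen with earlier results of these data known, so these shares are a description and no test of the list. Klf2, which maintains the egress receptor of circulating T cells and whose loss raises inflammatory chemokine receptors on mouse T cells, had 219 ± 202 CPM in APP-PS1 brain, against 1354 ± 279 CPM in APP-PS1 blood (SD, n = 4 and 3), a log2 fold change of -2.88 (SE 0.40, edgeR adjusted p = 2.04e-06). It had 142 ± 34 CPM in WT brain, against 772 ± 269 CPM in WT blood (SD, n = 5 each), a log2 fold change of -2.46 (SE 0.33, edgeR adjusted p = 1.29e-06). Tcf7, a factor of naive and stem-like T cells, and Tsc22d3, a glucocorticoid-induced regulator, were called lower averaged over strains and not within either strain (log2 fold changes -1.13 and -1.14, edgeR adjusted p = 0.0109 and 0.0120). Id2, an inhibitor of E proteins in effector cells, was the most abundant of the list, with 3285 ± 535 CPM in APP-PS1 brain, against 1649 ± 768 CPM in APP-PS1 blood (SD, n = 4 and 3), and 3653 ± 350.1 CPM in WT brain, against 3062 ± 697 CPM in WT blood (SD, n = 5 each). Id2 was not called in any comparison (lowest edgeR adjusted p = 0.0773).

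For each tested member, the 3 genes with the most similar log2 CPM over the 17 libraries were taken from all 2366 tested genes. These correlations are descriptions, since libraries of a group share tissue, strain and depth range. For Cxcr6 they were Isg20, an interferon-induced exonuclease (Pearson r = 0.933, Spearman rho = 0.926), Ppp1r16b, a phosphatase regulatory subunit (r = 0.890, rho = 0.926), and Samd3 (r = 0.841, rho = 0.777). The r of Cxcr6 with Isg20 was 0.789 over the 9 brain libraries and 0.601 over the 8 blood libraries. All values within a tissue use log2 CPM on library totals with a fixed addition to each count. Those over 17 libraries use edgeR's log2 CPM with TMM, so the 2 kinds are not strictly comparable. For Cxcr3 they were Mrpl52, Smc6 and Celf2 (r = 0.747, 0.726 and 0.699, rho = 0.674, 0.708 and 0.672). For Cxcr4 they were Rpl38, Wdr89 and Rpl28 (r = 0.891, 0.876 and 0.838, rho = 0.799, 0.841 and 0.853), of which Rpl38 and Rpl28 encode ribosomal proteins. For Ccr2 they were Gm4070, Zc3h7a and Ppp3ca (r = 0.817, 0.806 and 0.797, rho = 0.492, 0.705 and 0.676). Between the tested members r lay between -0.10 and 0.30 over all 17 libraries. Within a tissue, on the other scale, some pairs differed between brain and blood. Cxcr6 and Ccr2 had r = -0.62 (rho = -0.48) over the 9 brain libraries and 0.41 (rho = 0.43) over the 8 blood libraries. The brain value includes WT brain replicate 3, which had the highest Cxcr6 level (1231 CPM) and 0 CPM of Ccr2. Cxcr4 and Ccr2 had r = 0.57 (rho = 0.75) over brain and -0.52 (rho = -0.50) over blood, and Cxcr3 and Cxcr4 had r = -0.54 (rho = -0.47) over brain and -0.22 (rho = -0.26) over blood. These counts are low in many libraries, and the values are no more than a description.

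**Figure D5:**
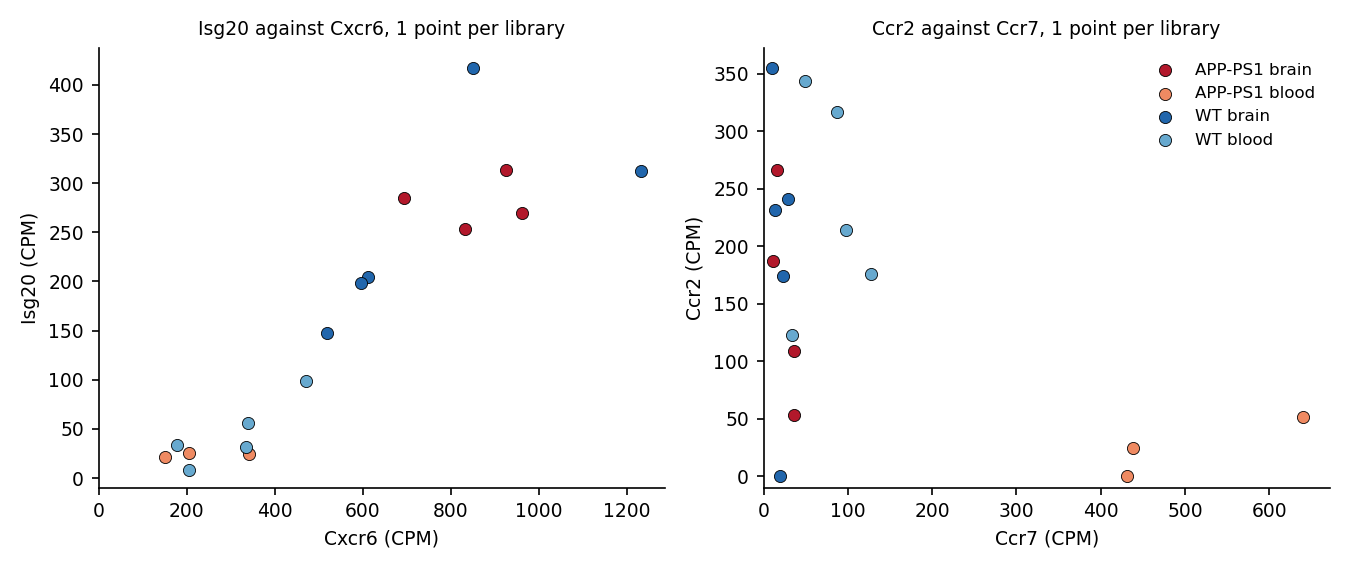
Left, Isg20 (y axis, CPM) against Cxcr6 (x axis, CPM); right, Ccr2 (y axis, CPM) against Ccr7 (x axis, CPM); each point is 1 of 17 libraries, coloured by group. The blood libraries fill the low corner on the left, and on the right the 3 APP-PS1 blood libraries stand alone with 432 to 640.1 CPM of Ccr7 and 0 to 51.2 CPM of Ccr2.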

How the data were processed

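The authors deposited raw read counts for each gene in each library. Tools named in the submitters' processing notes are FastQC, Bowtie2 2.2.2, HTSeq 0.11.2 and DESeq2, with the build GRCm38, without roles or order. The sources used here do not give the strand setting, annotation release, molecular identifiers or gate for CD8+ cells. Depth was 27646 to 214670 counts per library, and intervals and floors (3 counts) cover counting error only. Groups came from the labels. Of 29 same-group pairs of libraries, 0 were identical, and chi-square per degree of freedom was 2.59 to 5.69. Coordinates and exon lengths are from GENCODE M21, matched by identifier for 48349 of 48709 genes, and upstream sequences from RefSeq GRCm38.p6.

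Tests used edgeR 4.0.16 under R 4.3.3 (TMM, filterByExpr, robust quasi-likelihood F tests, 1 mean per group over all 17 libraries), with Benjamini-Hochberg adjustment per comparison and calls below 0.05. Standard errors were derived as |log2 fold change| / √F. CPM use library totals, and member CPM were also compared by two-sided exact permutation (SciPy 1.17.1). Pooled count ratios have exact conditional binomial intervals (95%). Steps were checked on simulated data with known changes. Alternatives were RLE factors, DESeq2 1.42.0, limma 3.58.1 voom with quality weights, at least 10 counts over all libraries, 5 CPM in 3 libraries, only the groups compared, sex as a term, female libraries only, no mitochondrial, ribosomal or haemoglobin genes, each library left out, TMM-scaled CPM and, added after seeing the data, a fit without the libraries that stood apart.

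The 5 members, all lists and the naming rule were chosen with earlier results of these data known. The rule names all members, the called genes and the 4 most abundant of each list, the 3 most similar genes of each tested member and the receptor neighbours on chromosome 9. Some genes that the rule takes in are not reported here. Of 164 listed symbols, 162 matched the file.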

Additional observations from a re-analysis of the deposited data

Results flagged for a closer look

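In APP-PS1 brain, the single Cx3cr1 count of replicate 3, equal to 17.8 CPM, was flagged as apart from the other 3 libraries of the group, which had none. A gap that is large for the range of values was looked for in 15 sets of library values. The usual chance rate of about 1 in 20 sets is for continuous values and does not hold here. A set with a count in only 1 library is always flagged. At this depth 1 count is all that separates these libraries.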

How the results depend on the processing

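No paired analysis was possible because replicate numbers follow accession order and the labels do not say which libraries share a mouse. The log2 fold change of Cxcr6 kept its direction in every alternative for both tissue comparisons. For WT it was 1.15 with both wider filters (edgeR adjusted p = 0.0620 and 0.0725), past the threshold no longer, and 0.97 to 1.40 when 1 library was left out. For APP-PS1 it was 1.47 (adjusted p = 0.512) with female libraries only and 1.67 to 2.27 when 1 library was left out, and averaged over strains 1.33 (adjusted p = 0.0892) with female libraries only. In blood, APP-PS1 over WT, it turned to 0.078 with female libraries only. Ccr2 in blood, APP-PS1 over WT, passed at -3.57, -3.59 (wider filters) and -3.35 (only the groups compared), and ranged from -4.26 to -2.76 when 1 library was left out. Ccr2 in brain, APP-PS1 over WT, turned to 0.27 with sex as a term and 0.39 with female libraries only, and its WT brain minus WT blood CPM difference ranged from -72.7 to 15.9 when 1 library was left out. Cxcr3, APP-PS1 over WT, turned to 0.091 in brain with female libraries only and to -0.10 and -0.13 in blood with wider filters, and ranged from -0.028 to 0.39 in blood when 1 library was left out. Its APP-PS1 brain minus blood CPM difference ranged from -9.19 to 54.1.

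Cxcr4 turned most often. Brain over blood in APP-PS1 it was 0.61 with limma voom, 0.39 with female libraries only and -0.76 to 0.85 when 1 library was left out. APP-PS1 over WT in brain it was 0.15 with sex as a term, 0.40 with female libraries only, 0.10 without the libraries that stood apart and -0.48 to 0.16 when 1 was left out. APP-PS1 over WT in blood it was -0.56 with limma voom, -0.15 and -0.19 with wider filters and -0.97 to 0.66 when 1 was left out. For the strain difference it was 0.37 with limma voom, 0.35 with female libraries only and -0.83 to 0.81 when 1 was left out. Averaged over strains it was 0.43 with limma voom, 0.014 with 5 CPM in 3 libraries, 0.22 with female libraries only and -0.35 to 0.45 when 1 was left out, and for WT -0.28 to 0.25. Its CPM differences ranged over -21.7 to 22.2 (WT), -84.5 to 34.2 (APP-PS1), -44.8 to 7.40 (brain) and -55.1 to 63.6 (blood) when 1 was left out, and the WT one was -3.87 with TMM-scaled CPM.

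Counts of called genes moved as well. WT brain over blood had 10 with limma voom. APP-PS1 brain over blood had 21 with DESeq2, 7 with limma voom, 8 with mitochondrial, ribosomal and haemoglobin genes removed, 1 with female libraries only and 8 to 26 when 1 library was left out. APP-PS1 blood over WT blood had 3 with limma voom, 5 with 10 counts, 7 with 5 CPM, 3 with only the groups compared, 3 with mitochondrial, ribosomal and haemoglobin genes removed, 0 with sex as a term, female libraries only or without the libraries that stood apart, and 0 to 3 when 1 was left out. The strain difference had 0 with DESeq2, limma voom, female libraries only or without the libraries that stood apart, and 0 to 1 when 1 was left out. Averaged over strains there were 38 with limma voom and 14 with female libraries only. The cause of these moves was not tested. Depth limits Cx3cr1, Cxcr4 and Ccr2 most, with 0 to 5 counts in many libraries, and strain and sex largely coincide.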
